A study of Mus musculus and Mus spretus with 72 samples.

Results

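The cytosolic ribosomal protein genes were measured as 73 of the 22089 probes on the arrays, which stand for 69 of the 14386 gene symbols. A probe belonged to the set when its single gene symbol began with Rpl or Rps and a digit, or was Rplp0, Rplp1, Rplp2 or Rpsa. Pseudogenes, the Rps6k kinases and Rpl41 were left out, which removed 8 names. Of the 69 genes, 44 have names of the large subunit and 25 of the small subunit. The rule on names also took in Rps19bp1, which encodes a binding partner of a ribosomal protein, and Rps23rg1, a retrogene. Values came from 72 arrays with 2 channels, which compared RNA of individual male mice of about 12 weeks with a pool from 9 C57BL6 mice, an inbred laboratory strain, made from the same tissue. The tissues were brain, liver/kidney (1 sample type in the labels) and testis. Each tissue had 6 arrays of Mus musculus domesticus (dom), 6 of M. m. musculus (mus), 6 ssp (a M. musculus sub-species that the labels leave unnamed), 3 cas (M. m. castaneus) and 3 spretus (M. spretus) arrays. Dom, mus, cas and ssp are called the 4 musculus groups. One brain array, mus 08, is mus by its title and domesticus by its channel label, and it was kept in mus.

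All values are log ratios of animal over pool, read here as log2. Neither the base of the logarithm nor the direction is stated in the sources used here, and the direction is the likely one from the layout of the channels. Because each tissue has its own pool, a value of 0 means the level of that tissue in C57BL6, and levels cannot be set against each other between tissues or between genes. The labels name dyes for 2 arrays, with the same dye on the pool in both, and they name no dye swap. A bias between the dyes and a true difference from the pool therefore cannot be told apart. In tissue RNA, fewer cells of a type and less RNA per cell cannot be told apart either.

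Ribosomal proteins are made in nearly equal amounts and assemble with ribosomal RNA into the small subunit, which reads the messenger RNA, and the large subunit, which joins amino acids. The acidic proteins Rplp1 and Rplp2 sit with Rplp0 in the flexible stalk that recruits translation factors. Many of these messenger RNAs begin with a terminal oligopyrimidine tract, a run of C and T bases at the start of the transcript through which growth signals control their translation. The family has many processed pseudogenes, so a probe may also bind RNA of near-identical copies, and the values below are those of probes. Whether sequence differences of spretus or the sub-species from the probes altered the binding was not tested. Several members have a second expressed gene for the same protein position, such as Rpl22 and Rpl22l1 or the X-linked Rpl39 and its counterpart Rpl39l.

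The start regions of 8 members that recur in the results are printed first, because the run of C and T bases at the start is the sequence feature by which the family is known. Each window holds the 40 bases before the annotated transcript start and the first 10 bases of the transcript, 5′ to 3′, from RefSeq (GRCm38.p6). Capitals mark runs of at least 6 C or T bases that end within 20 bases before the start or later.
Rpl38: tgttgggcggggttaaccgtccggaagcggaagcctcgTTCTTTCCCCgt
Rplp2: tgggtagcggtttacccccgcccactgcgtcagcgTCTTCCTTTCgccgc
Rps6: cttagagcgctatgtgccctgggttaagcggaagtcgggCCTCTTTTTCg
Rpl28: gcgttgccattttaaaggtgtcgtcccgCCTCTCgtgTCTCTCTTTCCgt
Rps21: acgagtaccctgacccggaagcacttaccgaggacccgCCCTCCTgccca
Rps19: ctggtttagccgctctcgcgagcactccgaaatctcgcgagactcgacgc
Rps7: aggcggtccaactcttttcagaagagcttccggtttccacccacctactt
Rps28: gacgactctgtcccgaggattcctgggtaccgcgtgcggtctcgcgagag
The windows are Rpl38 at chr11:114668540-114668589 (plus strand), Rplp2 at chr7:141447611-141447660 (plus strand), Rps6 at chr4:86857358-86857407 (minus strand) and Rpl28 at chr7:4792925-4792974 (plus strand). The others are Rps21 at chr2:180257339-180257388 (plus strand), Rps19 at chr7:24884552-24884601 (plus strand), Rps7 at chr12:28635944-28635993 (minus strand) and Rps28 at chr17:33824553-33824602 (minus strand). Rpl38, Rplp2 and Rps6 carry a run across the start, Rpl28 carries runs on both sides of a short break, and Rps21 carries a shorter run that also crosses the start. The windows of Rps19 and Rps28 hold no marked run, and that of Rps7 holds a run of C and T bases that ends more than 20 bases before the start and is not marked. Promoters were found for 58 of the 69 member symbols. A run of at least 8 C or T bases on the coding strand that reached within 20 bases of the start was present in 24 of the 58 (41.4%), against 15.9% of all 27025 promoters. On the opposite strand the same run was present in 3 of the 58 (5.17%), against 17.4% of all promoters. The letters CCGGAAG, a core of sites for ETS factors, were found on either strand of the 300 bases around the start in 22 of the 58 (37.9%), against 9.14% of all. The letters ATGGCGG, found in sites for the factor YY1, were present in 10 of the 58 (17.2%), against 4.21% of all. A match is a description of the letters and was not set against binding.

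Some arrays stood apart from the others. Each array held 42825 to 44832 values, and 71 to 73 of the 73 member probes were measured on it. Duplicate spots of all probes correlated with r between 0.275 and 0.784, and those of the members with r between -0.00127 and 0.960 (median 0.666), lowest on the brain array of dom 05. The pattern of missing spots split the arrays into 4 sets. In brain and testis some groups were split between sets, but all 3 spretus arrays fell in the same set, set 2, in both tissues. That set also held arrays of cas and mus, and in brain of ssp. In liver/kidney all dom, mus and ssp arrays fell in 1 set and all cas and spretus arrays in 2 others. Set and group cannot be told apart there. The brain array of cas 03 and the testis array of dom 01 were each alone in their set within their tissue. Over all probes that cas 03 array was the widest brain array, with an SD of 0.41, and had the lowest duplicate r of all arrays, 0.275. The liver/kidney array of spretus 02 was also alone in its set in that tissue. On it the 73 members had an SD of 0.95 on the log2 scale, against 0.34 on the next widest liver/kidney array and a median of 0.22. Over all probes it was also the widest liver/kidney array, with an SD of 0.42 against a lowest of 0.18. Of the member probes 18 lay above 1 on that array, whereas the median array had 0 such members.

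The values on that spretus 02 liver/kidney array were 2.91 for Rpl26, 2.84 for Rps12, 2.43 for Rplp1, 2.37 for Rps19 and 2.33 for Rps6. For these 5 genes spretus 01 lay between -0.26 and 0.13 and spretus 03 between -0.38 and 0.23. Both duplicate spots were high for each of them, for example 3.01 and 2.86 for Rpl26 and 3.00 and 2.72 for Rps12. Other members went the other way on the same array, with Rps20 at -1.05, the Rpsa probe 13120 at -0.91 and Rps24 at -0.86. The median of the members was 0.03 to 0.09 on the 3 spretus arrays, so the wide array was not shifted as a whole. Over all 72 arrays 9 member values lay beyond 2 in either direction, 7 of them on this array. The other 2 were Rpl10a on mus 03 in testis, at 2.92 from 1 measured spot, and Rps14 on spretus 03 in testis, at 2.29 from spots at 4.03 and 0.55.

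**Figure D1:**
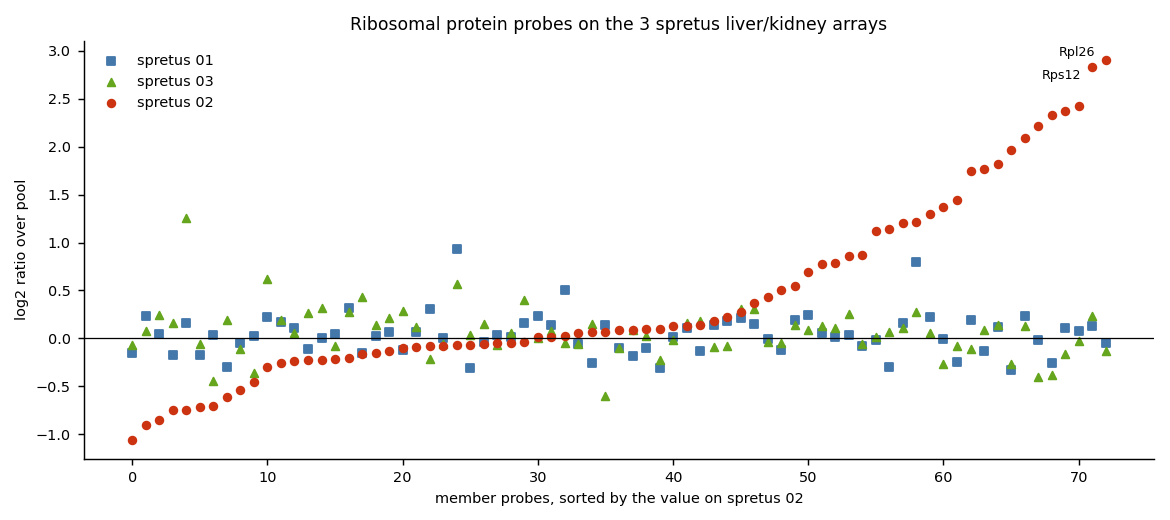
Log2 ratio over the pool of each ribosomal protein probe on the 3 spretus liver/kidney arrays, with probes sorted along the x axis by their value on spretus 02. Spretus 02 (circles) reaches 2.91 for Rpl26 and 2.84 for Rps12, while spretus 01 (squares) and spretus 03 (triangles) stay near 0 for the same probes.

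The first comparison set the mean of the 4 musculus groups, each group weighted equally, against the C57BL6 pool. Ribosomal protein genes lay mostly above the pool in all 3 tissues, by small amounts. In brain 15 of 73 member probes were higher and 1 lower at an adjusted p under 0.05 (limma, Benjamini-Hochberg over all probes), against 5.28% and 3.67% of all probes. In liver/kidney 30 of 72 were higher and 1 lower, against 17.4% and 14% of all probes. In testis 25 of 72 were higher and 3 lower, against 4.36% and 8.75% of all probes. The median member lay at 0.06, 0.10 and 0.07 on the log2 scale in brain, liver/kidney and testis, while the median of all probes lay within 0.01 of 0. The test takes the pool as fixed and leaves out its own spread.

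The median member of an array was above 0 on 22 of 24 brain, 23 of 24 liver/kidney and 22 of 24 testis arrays, the spretus arrays included. The estimate was above 0 for 54 of 73 (brain), 61 of 72 (liver/kidney) and 54 of 72 (testis) members, against 47.0%, 48.4% and 51.5% of all probes. Among the core proteins of the large subunit 9 of 41 probes were higher in brain, 15 of 41 in liver/kidney and 12 of 41 in testis. Of the core small subunit probes 5 of 24, 13 of 23 and 10 of 23 were higher. Within sets of arrays that share missing spots the median member stayed between 0.04 and 0.14 in every tissue, where it is the mean of the groups with at least 2 arrays in the set. In set 2 these groups were cas, mus and ssp in brain, cas alone in liver/kidney and cas and mus in testis, and 2, 0 and 4 members were called there, so these are not estimates over the same groups.

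**Figure D2:**
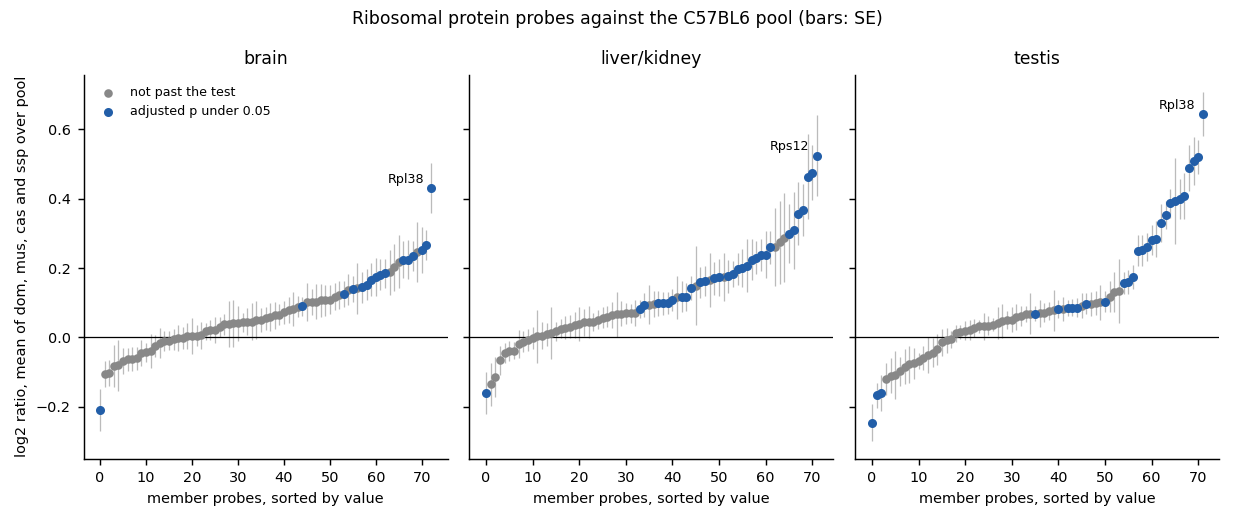
Log2 ratio of the mean of dom, mus, cas and ssp over the C57BL6 pool for each ribosomal protein probe, sorted by value, in brain, liver/kidney and testis. Bars are standard errors, and blue points passed an adjusted p under 0.05. Most points lie above 0, and Rpl38 is the highest in brain (0.43) and testis (0.64).

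There were 5 probes higher than the pool in all 3 tissues, and they were those of Rpl36al, Rpl38, Rplp2, Rps19 and Rps28. A further 15 were higher in 2 tissues and 25 in 1. The shares of all probes higher in 1, 2 or 3 tissues are not given, so these counts are descriptions. Rpl38 is a large subunit protein linked to the translation of Hox messenger RNAs, and it had the largest values of these 5. In testis its values over the pool were 0.01 to 0.99 (median 0.24) in dom, 0.07 to 0.52 (median 0.18) in mus and 0.25 to 1.29 (median 0.97) in ssp. The cas arrays lay at 1.02, 1.05 and 1.18 and the spretus arrays at 0.17, 0.36 and 0.50. All 21 arrays of the 4 musculus groups were above 0, cas stood above every dom, mus and spretus array, and cas and ssp overlapped. The estimate over the 4 musculus groups was 0.64 ± 0.06 (SE, adjusted p = 1.44e-06), a 1.56-fold level.

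In brain Rpl38 lay at 0.17 to 1.14 (median 0.33) in dom, -0.75 to 0.36 (median 0.23) in mus and 0.33 to 1.03 (median 0.75) in ssp. Its cas arrays were at 0.53, 0.18 and 0.63 and its spretus arrays at 0.27, 0.81 and 0.89. The single array below 0 was mus 08, the one whose labels disagree. The estimate was 0.43 ± 0.07 (SE, adjusted p = 0.00108) in brain and 0.46 ± 0.12 (SE, adjusted p = 0.00616) in liver/kidney, where all 21 musculus arrays were above 0.

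Rps19, a small subunit protein whose human gene is the one most often mutated in Diamond-Blackfan anaemia, was above the pool on 21 of 21 testis arrays of the 4 musculus groups. There it ran from 0.16 to 0.68 (median 0.38) in dom, 0.16 to 0.34 (median 0.27) in mus and 0.33 to 1.00 (median 0.76) in ssp, with cas at 0.99, 0.52 and 0.66. Cas lay above every mus array, the other groups overlapped with their neighbours, and the estimate was 0.52 ± 0.05 (SE, adjusted p = 1.34e-06). It was 0.25 ± 0.07 (SE, adjusted p = 0.0217) in brain and 0.31 ± 0.11 (SE, adjusted p = 0.037) in liver/kidney. Rps28, also of the small subunit, gave 0.19 ± 0.04 (SE, adjusted p = 0.00773), 0.24 ± 0.05 (SE, adjusted p = 0.000322) and 0.25 ± 0.04 (SE, adjusted p = 0.000526) in brain, liver/kidney and testis. Its values were above 0 on 18 of 21, 20 of 21 and 19 of 21 musculus arrays of those tissues.

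Other brain members above the pool included the large subunit proteins Rpl26 and Rpl21 and the small subunit protein Rps7. Rpl26, which also regulates the translation of the tumour suppressor p53, ran over the pool from 0.01 to 0.51 (median 0.23) in dom, -0.21 to 0.45 (median 0.14) in mus and 0.25 to 0.73 (median 0.38) in ssp. The 3 groups overlapped, and the estimate was 0.27 ± 0.04 (SE, adjusted p = 0.000692). The estimates of Rps7 and Rpl21 were 0.23 ± 0.04 (SE, adjusted p = 0.00219) and 0.22 ± 0.05 (SE, adjusted p = 0.0109). Rpl21 fell to 0.13 (adjusted p = 0.0224) without the array of cas 03. The 1 member below the pool was the Rpsa probe 13120, at -0.21 ± 0.06 (SE, adjusted p = 0.0296), while the second Rpsa probe gave -0.01 ± 0.03 (SE). Rpsa encodes a ribosomal protein that is also known as the laminin receptor.

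In liver/kidney the small subunit gene Rps16 had the smallest p-value. Its values over the pool were 0.24 to 0.59 (median 0.30) in dom, -0.05 to 0.40 (median 0.29) in mus and 0.14 to 0.59 (median 0.36) in ssp. The cas arrays were at 1.36, 0.92 and 0.55 and the spretus arrays at 0.16, -0.74 and 1.25, so that the 3 spretus arrays spanned more than all dom, mus and ssp arrays. The estimate over the musculus groups was 0.47 ± 0.08 (SE, adjusted p = 6.52e-05). Rps12 had the largest estimate, 0.52 ± 0.12 (SE, adjusted p = 0.00152), and ran from 0.12 to 1.07 (median 0.48) over the musculus arrays. Rps24 and Rps25, also of the small subunit, gave 0.37 ± 0.07 (SE, adjusted p = 0.000593) and 0.26 ± 0.05 (SE, adjusted p = 0.000241). Rpl15 and Rpl5, the latter of which binds 5S ribosomal RNA and the p53 regulator Mdm2, gave 0.23 ± 0.05 (SE, adjusted p = 0.000682) and 0.18 ± 0.04 (SE, adjusted p = 0.000883). Rpl6 was the 1 member below the pool, at -0.16 ± 0.06 (SE, adjusted p = 0.0451), a call that was lost in 13 of the 21 runs without 1 array (-0.21 to -0.12). Its dom and mus arrays were all below 0. Dom ran from -0.77 to -0.00 (median -0.58), mus from -0.72 to -0.08 (median -0.30) and ssp from -0.37 to 0.37 (median 0.14).

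Cell type markers were also counted in liver/kidney, where 17.4% of all probes were above the pool and 14% below. Of 12 hepatocyte markers 10 were above the pool and 0 below in the 4 musculus groups, with a list median of 0.25. The median hepatocyte marker ran from 0.08 to 0.40 over the arrays of the 4 musculus groups and from -0.25 to -0.00 over the 3 spretus arrays. Of 9 proximal tubule markers of the kidney (10 probes) 2 probes were above and 2 below, and of 6 distal nephron markers 1 was above and 1 below. The kidney counts are small and lie near the shares of all probes. Because each array measures against a pool of the same tissue, the defining markers cannot show from these ratios which tissue a sample is. The part of these markers' cell types in the ribosomal protein values was not tested.

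In testis the members highest above the pool after Rpl38 and Rps19 were Rps29, Rps7 and Rps6. Rps29, a small zinc-binding protein, ran over the pool from 0.02 to 0.65 (median 0.38) in dom, -0.10 to 0.55 (median 0.12) in mus and 0.09 to 1.12 (median 0.75) in ssp, with cas at 0.55, 0.82 and 0.99. Its estimate was 0.51 ± 0.07 (SE, adjusted p = 4.13e-05), and 18 of 21 musculus arrays were above 0. The estimates were 0.49 ± 0.07 (SE, adjusted p = 3.86e-05) for Rps7 and 0.41 ± 0.07 (SE, adjusted p = 0.000267) for Rps6, the protein that S6 kinase phosphorylates. Rps15 and Rpl26 had tighter values, at 0.39 ± 0.04 (SE, adjusted p = 2.45e-06) and 0.35 ± 0.04 (SE, adjusted p = 4.35e-06). The 3 members below the pool were Rpl3, at the peptidyl transferase centre, with -0.25 ± 0.05 (SE, adjusted p = 0.00292), Rps20 with -0.17 ± 0.04 (SE, adjusted p = 0.00294) and Rpl4 with -0.16 ± 0.05 (SE, adjusted p = 0.0395). Testis holds germ cells at many stages. Beside these values 2 of 9 spermatid markers were above the pool and 0 below, and 1 of 8 spermatocyte markers was above and 1 below. Of all testis probes 4.36% were above and 8.75% below. Their part was not tested.

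The next comparison set M. spretus against the mean of the 4 musculus groups, which asks how probe values differ in the more distant species. A difference in RNA level and one in binding to the probe cannot be told apart here. In brain 6 of 73 member probes were higher and 2 lower, against 1.88% and 2.07% of all probes. In liver/kidney 2 of 72 were higher and 3 lower, against 3.03% and 4.46%, which is near the background. In testis 7 of 72 were higher and 4 lower, against 5.63% and 3.79%. The median member lay at 0.07, 0.02 and 0.01 in the 3 tissues, and the median of all probes at 0.02, -0.00 and 0.01. With quantile normalisation the split of calls became 4 higher and 3 lower in brain, 1 and 1 in liver/kidney and 1 and 2 in testis. Without centring of the arrays the testis split became 6 higher and 8 lower. With the missing-spot set as a term 5 of the 8 brain and 6 of the 11 testis calls were kept. In brain Rpl9, Rps29 and Rpl13 lost theirs in that limma fit (adjusted p = 0.149, 0.164 and 0.055). Within set 2 alone, which has fewer arrays, 1 of the 8 and 2 of the 11 were kept. The counts depended on spretus 02, since without that animal the called members numbered 0 (brain), 3 (liver/kidney) and 4 (testis). They numbered 5, 9 and 11 without spretus 01 and 5, 14 and 9 without spretus 03, and limma's array weights raised the brain count to 28. The shares of all probes called in these alternative fits are not given, so the shifts cannot be read as particular to the members.

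**Figure D3:**
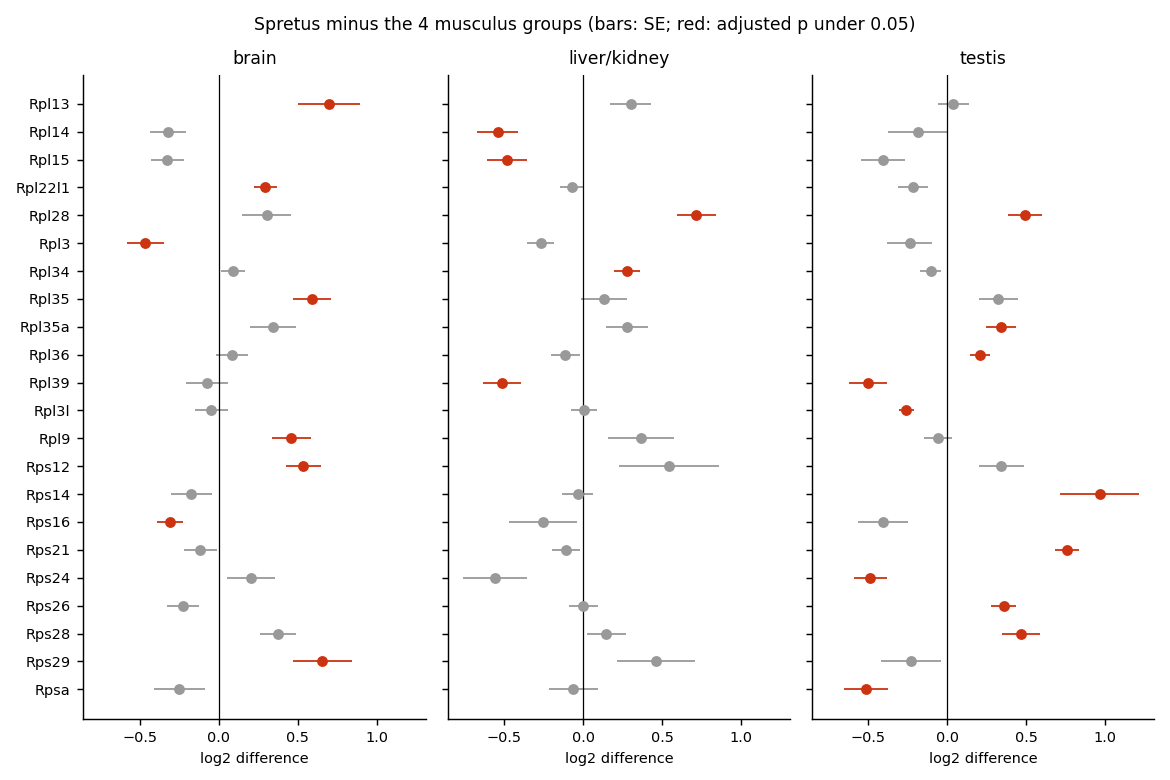
Log2 difference between spretus and the 4 musculus groups, with standard errors, in 3 tissues for the 22 ribosomal protein probes called in at least 1 tissue (Rpl35a is probe 4502 and Rpsa probe 13120). Red points passed an adjusted p under 0.05. Rpl28 and Rpl39 are the probes called in 2 tissues, and Rps21 is far from 0 in testis alone.

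Rps21, a small subunit protein, was the member with the smallest p-value in this comparison. In testis its ratio over the pool was 0.73, 0.92 and 0.88 on the 3 spretus arrays. It was -0.08 to 0.22 (median 0.03) in dom, -0.07 to 0.07 (median 0.00) in mus and -0.06 to 0.39 (median 0.14) in ssp, with cas at 0.11, 0.06 and 0.23. Every spretus array lay above all 21 musculus arrays. The difference was 0.76 ± 0.08 (SE, adjusted p = 2.9e-07), or 1.69-fold, and it kept its call when any 1 array was left out. Within the set of testis arrays that holds cas, spretus and 2 mus arrays it was 0.80 (adjusted p = 0.00243), and with quantile normalisation 0.42 (adjusted p = 0.00232). In the other tissues spretus did not stand apart, with -0.02, -0.09 and -0.10 in brain and 0.07, -0.09 and 0.12 in liver/kidney. The differences there were -0.12 ± 0.11 (SE, adjusted p = 0.598) and -0.11 ± 0.09 (SE, adjusted p = 0.547). A test of the difference between tissues, in 1 limma model of the 3 tissues that took each animal as a random effect, gave -0.87 ± 0.13 (SE, adjusted p = 2.29e-06) for brain minus testis and -0.86 ± 0.13 (SE, adjusted p = 2.17e-06) for liver/kidney minus testis.

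**Figure D4:**
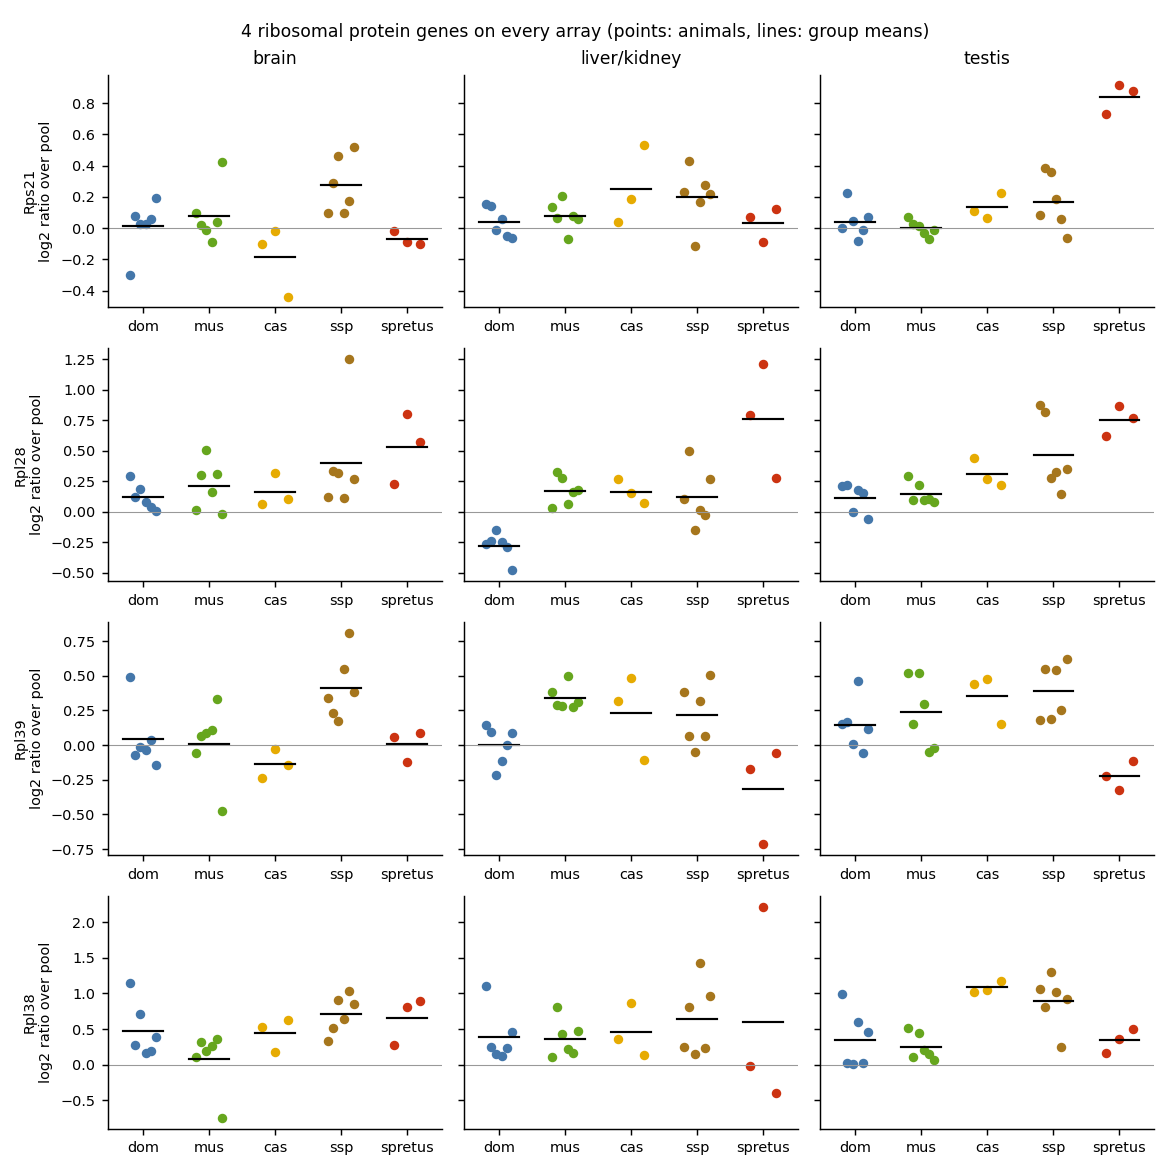
Log2 ratio over the pool of Rps21, Rpl28, Rpl39 and Rpl38 on every array, by group and tissue, with 1 point per animal and lines at group means. The 3 spretus testis values of Rps21 (0.73, 0.92 and 0.88) lie above all other testis arrays, Rpl28 separates dom from mus in liver/kidney, and spretus 02 is the highest Rpl38 value in liver/kidney.

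Rpl28 was higher in spretus in liver/kidney and in testis. Its liver/kidney values over the pool were 0.79, 1.21 and 0.28 in spretus, -0.48 to -0.15 (median -0.25) in dom, 0.03 to 0.32 (median 0.17) in mus and -0.15 to 0.49 (median 0.06) in ssp. Spretus 03 lay within the range of mus, and the difference was 0.72 ± 0.13 (SE, adjusted p = 0.00119). Without spretus 02 it was 0.49 (adjusted p = 0.0236). In testis the spretus arrays were at 0.62, 0.86 and 0.77, and the ssp arrays, from 0.15 to 0.87 (median 0.34), overlapped with them. The testis difference was 0.49 ± 0.11 (SE, adjusted p = 0.00479), and without spretus 02 it was 0.44 (adjusted p = 0.0585). Quantile normalisation left 0.19 (adjusted p = 0.263) in testis. In brain the difference was 0.31 ± 0.16 (SE), which did not pass.

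Rpl39, an X-linked protein that lines the exit tunnel of the ribosome, was lower in spretus in the same 2 tissues. Its testis ratios were -0.22, -0.32 and -0.12 in spretus against -0.06 to 0.46 (median 0.14) in dom, -0.05 to 0.52 (median 0.22) in mus and 0.18 to 0.62 (median 0.40) in ssp, with cas at 0.44, 0.48 and 0.15. All spretus arrays lay below all musculus arrays, and the difference was -0.50 ± 0.12 (SE, adjusted p = 0.00838). Without spretus 02 it was -0.45 (adjusted p = 0.0801), and with the missing-spot set as a term -0.23 (adjusted p = 0.485). In liver/kidney the spretus ratios were -0.18, -0.72 and -0.06, and the difference of -0.51 ± 0.12 (SE, adjusted p = 0.0116) became -0.31 (adjusted p = 0.184) without spretus 02. Its autosomal counterpart Rpl39l, known from testis, gave 0.21 ± 0.09, 0.04 ± 0.07 and -0.16 ± 0.08 (SE) in brain, liver/kidney and testis, and none passed.

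Other testis members that differed included the paralog Rpl3l, which replaces Rpl3 in heart and skeletal muscle. Its spretus ratios of -0.16, -0.29 and -0.24 lay below all 20 measured musculus arrays, and the difference was -0.26 ± 0.05 (SE, adjusted p = 0.00128). It kept its call in all 24 runs that left out 1 array. Rps26 and Rps24, both small subunit proteins mutated in some cases of Diamond-Blackfan anaemia, gave 0.36 ± 0.08 (SE, adjusted p = 0.00451) and -0.49 ± 0.10 (SE, adjusted p = 0.0036). Spretus arrays of Rps26 lay at 0.27, 0.55 and 0.31, all above the musculus arrays, and those of Rps24 at -0.36, -0.65 and -0.25. Without spretus 02 the values were 0.27 (adjusted p = 0.089) and -0.37 (adjusted p = 0.0769). Rps14 had the largest difference, 0.96 ± 0.25 (SE, adjusted p = 0.015), which rested on the discordant spots of spretus 03, and without that animal it was 0.36 (adjusted p = 0.296). Rps28 gave 0.46 ± 0.12 (SE, adjusted p = 0.0154), the Rpl35a probe 4502 0.34 ± 0.10 (SE, adjusted p = 0.0278), Rpl36 0.21 ± 0.06 (SE, adjusted p = 0.041) and the Rpsa probe 13120 -0.52 ± 0.14 (SE, adjusted p = 0.0188). Each of these 4 lost its call without at least 1 spretus array. Among testis cell types 3 of 9 spermatid markers were lower in spretus and 2 of 8 Sertoli cell probes were higher and 1 lower. Of all testis probes 5.63% were higher and 3.79% lower. The part of these cell types in the values was not tested.

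In brain Rpl35, a large subunit protein at the tunnel exit, had the smallest p-value in spretus. Its ratios were 0.53, 1.09 and 0.48 in spretus against -0.07 to 0.27 (median 0.09) in dom, -0.09 to 0.32 (median 0.05) in mus and -0.07 to 0.49 (median 0.23) in ssp. Spretus 02 stood apart from the other spretus animals, and the lowest spretus array overlapped the highest ssp array. The difference was 0.59 ± 0.12 (SE, adjusted p = 0.00584) and became 0.40 (adjusted p = 0.116) without spretus 02. Rps12 behaved likewise, with spretus ratios of 0.28, 1.02 and 0.67, a difference of 0.54 ± 0.11 (SE, adjusted p = 0.00617) and 0.35 (adjusted p = 0.12) without spretus 02. Rpl9 and Rps29 gave 0.46 ± 0.12 (SE, adjusted p = 0.0333) and 0.66 ± 0.19 (SE, adjusted p = 0.0464), and 0.32 (adjusted p = 0.278) and 0.47 (adjusted p = 0.315) without that animal.

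For 4 of the 8 brain calls spretus 02 did not stand far from the other spretus animals. Rpl22l1, the paralog of Rpl22, had ratios of 0.40, 0.35 and 0.27 in spretus against -0.18 to 0.41 (median 0.02) in the 20 measured musculus arrays, with an overlap and a difference of 0.29 ± 0.07 (SE, adjusted p = 0.0246). Rps16 had -0.25, -0.25 and -0.17 against -0.29 to 0.64 (median 0.12) and a difference of -0.31 ± 0.08 (SE, adjusted p = 0.0336), and mus arrays reached down to -0.29. Rpl13 had 0.62, 0.47 and 0.76 against -1.33 to 0.14 (median 0.01), with no overlap, and a difference of 0.70 ± 0.20 (SE, adjusted p = 0.0457). Among the musculus arrays of Rpl13 dom 13 (-1.33) and ssp 04 (-0.86) lay far below the rest, and without both, a check added after seeing the data, the difference was 0.60 (adjusted p = 5.73e-05). It lost its call in 14 of the 24 runs without 1 array, all 3 spretus arrays among them. Rpl3 was lower, with -0.52, -0.59 and -0.33 in spretus against -0.49 to 0.63 in the musculus arrays. Cas 03, the lowest of these, overlapped with spretus, and mus 05 was the highest. The difference for Rpl3 was -0.46 ± 0.12 (SE, adjusted p = 0.0246). Without spretus 02 these 4 were 0.29 (adjusted p = 0.103), -0.30 (adjusted p = 0.138), 0.77 (adjusted p = 0.103) and -0.41 (adjusted p = 0.143). Beside these, 0 of the 9 neuronal, 13 astrocyte, 7 oligodendrocyte, 9 microglial and 4 choroid plexus probes tested were called in spretus, with list medians of -0.11, -0.05, 0.05, -0.07 and -0.07. Of all brain probes 1.88% were higher and 2.07% lower. The part of these cell types in the values was not tested.

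In liver/kidney the remaining calls were Rpl14, Rpl15 and Rpl34 of the large subunit. Rpl14 had spretus ratios of 0.03, -0.70 and -0.44, and the first of these lay inside the musculus range of -0.12 to 0.58 (median 0.14). Its difference was -0.54 ± 0.13 (SE, adjusted p = 0.0116) and became -0.37 (adjusted p = 0.151) without spretus 02. Rpl15 had ratios of -0.17, -0.75 and 0.16, a difference of -0.48 ± 0.13 (SE, adjusted p = 0.0222) and -0.24 (adjusted p = 0.34) without spretus 02. Rpl34 had ratios of 0.21, 0.28 and 0.31, a difference of 0.28 ± 0.08 (SE, adjusted p = 0.0428) and 0.27 (adjusted p = 0.133) without spretus 02. The ssp 01 array, at 0.34, lay above all spretus arrays of Rpl34. This call was lost in 14 of the 24 runs without 1 array, those without each spretus array among them. With the missing-spot set as a random block 0 of these 5 calls passed, and set and group cannot be told apart in this tissue. Of the 12 hepatocyte markers 5 were lower in spretus and 0 higher, against 4.46% and 3.03% of all probes. Among the kidney markers Umod of the distal nephron was higher, at 0.72 ± 0.12 (SE, adjusted p = 0.000957). Slc5a2 of the proximal tubule was lower, at -0.40 ± 0.11 (SE, adjusted p = 0.0336). The part of these cell types was not tested.

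Whether all spretus arrays lay beyond all others was also counted. This held for 2 members in brain (Rpl13 and Rpl39l above), against 2.25% of all probes. It held for 0 members in liver/kidney, against 1.54%, and for 6 in testis, against 3.64%. In testis Rpl35, Rps21 and Rps26 lay above, and Rpl15, Rpl39 and Rpl3l lay below. The testis values of Rpl35 were 0.23, 0.22 and 0.15 in spretus, and its difference of 0.32 ± 0.12 (SE, adjusted p = 0.108) did not pass. Its ssp arrays ran from -0.97 to -0.01 (median -0.11).

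Among the sub-species of M. musculus 0 member probes passed the limma test in any contrast and tissue. Mus and dom, set against each other, had 0.223%, 0.591% and 0% of all probes called in brain, liver/kidney and testis. At an unadjusted p under 0.05 there were 7 of 73, 4 of 72 and 4 of 72 members. Of all probes 1923 of 20621, 1305 of 20652 and 1367 of 20754 were under it. Cas against dom and mus had 0.0097%, 1.11% and 0.0193% of all probes called. At an unadjusted p under 0.05 it had 8, 11 and 14 members, against 2477, 3059 and 1298 of all probes. Ssp against dom, mus and cas had 0.097%, 0.0436% and 0% called. At an unadjusted p under 0.05 it had 13, 2 and 10 members, against 3233, 2183 and 1009 of all probes. As shares at this unadjusted threshold, members were above all probes in testis for cas and ssp. They were below all probes in liver/kidney for ssp, and near them otherwise. A p that misses the threshold does not show that the groups were alike, and single members came close.

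Between mus and dom the closest in brain was the Rpsa probe 13120. It ran over the pool from -0.03 to 0.43 (median 0.02) in dom and -0.70 to -0.20 (median -0.57) in mus, with no overlap, and mus minus dom was -0.62 ± 0.15 (SE, adjusted p = 0.0773). This probe passed under several alternatives, with an adjusted p of 0.0193 after quantile normalisation, 0.00591 with array weights, 0.0407 on the arrays of the 2 groups alone, 0.036 with the missing-spot set as a term and 0.02 within set 1. It also passed without mus 05 (0.0413) and without arrays of low duplicate agreement (0.0286). The second Rpsa probe gave -0.08 ± 0.08 (SE). Rpl3 went the other way, at 0.41 ± 0.11 (SE, adjusted p = 0.093), and passed with quantile normalisation (0.0229) and array weights (0.0209). In liver/kidney Rpl28 was below 0 on all 6 dom arrays and above 0 on all 6 mus arrays, and its difference was 0.45 ± 0.12 (SE, adjusted p = 0.102). Rpl39 did not overlap there either, with -0.21 to 0.15 (median 0.05) in dom, 0.28 to 0.50 (median 0.30) in mus and a difference of 0.34 ± 0.11 (SE, adjusted p = 0.351). Fitted on the arrays of these 2 groups alone, both passed, Rpl28 with an adjusted p of 0.00286 and Rpl39 with 0.0245. Both also passed with quantile normalisation (0.00971 and 0.0483) and array weights (0.0102 and 0.0126). In testis the smallest p-values were those of Rpl7a, -0.16 ± 0.06 (SE, adjusted p = 0.741), and Rps15, -0.25 ± 0.10 (SE, adjusted p = 0.746).

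Members whose dom and mus arrays did not overlap numbered 2 of 71 in brain, against 1.37% of all probes measured on all 12 arrays. They numbered 3 of 72 in liver/kidney, against 1.41%, and 1 of 69 in testis, against 0.414%. These were Rps16 and the Rpsa probe 13120 in brain, Rpl28, Rpl39 and Rps27l in liver/kidney, and Rps10 in testis. As shares these were above the background in each tissue, but they rest on 1 to 3 probes. Rps16 in brain lay at 0.12 to 0.24 (median 0.15) in dom and -0.29 to 0.06 (median -0.08) in mus.

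Cas came closest to a call with Rpl6 in liver/kidney, where cas minus dom and mus was 0.58 ± 0.17 (SE, adjusted p = 0.0923). The cas arrays were at 0.01, -0.16 and 0.58, and cas 02 lay within the dom and mus ranges given above, while cas 01 and cas 03 lay above them. In testis Rpl38 had the largest difference, 0.78 ± 0.18 (SE, adjusted p = 0.197), from the cas values printed above, and Rps12 gave 0.58 ± 0.15 (SE, adjusted p = 0.338). In brain Rpl12 and Rps3a1 gave -0.24 ± 0.08 (SE, adjusted p = 0.258) and -0.24 ± 0.10 (SE, adjusted p = 0.335). Ssp came closest in brain, where Rpl7 gave 0.29 ± 0.06 (SE, adjusted p = 0.0595) and Rps7 0.40 ± 0.09 (SE, adjusted p = 0.0736). The Rps7 ratios were 0.17 to 0.77 (median 0.64) in ssp against 0.01 to 0.49 (median 0.19) in dom, and the ranges overlapped. In liver/kidney Rpl6 gave 0.35 ± 0.13 (SE, adjusted p = 0.326), and in testis the Rpsa probe 8734 gave -0.28 ± 0.08 (SE, adjusted p = 0.753).

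Differences of the contrasts between tissues were tested for every probe. For the excess over the pool 5 members differed between brain and liver/kidney, 10 between brain and testis and 17 between liver/kidney and testis, against 9.88%, 11.2% and 25.3% of all probes. These shares lie near the background or below it. Rps16 was further above the pool in liver/kidney than in brain, by -0.39 ± 0.09 (SE, adjusted p = 0.000785) as brain minus liver/kidney, and than in testis, by 0.41 ± 0.09 (SE, adjusted p = 0.000198) as liver/kidney minus testis. Rpl15 gave -0.30 ± 0.07 (SE, adjusted p = 0.000653) and 0.31 ± 0.07 (SE, adjusted p = 0.000154) in the same order, and Rps24 -0.27 ± 0.09 (SE, adjusted p = 0.0324) and 0.30 ± 0.09 (SE, adjusted p = 0.00632). Rpl3 and Rpl4 were lower against the pool in testis than in brain, where they gave -0.02 ± 0.04 and 0.08 ± 0.04 (SE), with brain minus testis at 0.23 ± 0.06 (SE, adjusted p = 0.00971) and 0.24 ± 0.06 (SE, adjusted p = 0.00602). Rps7 was further above the pool in testis, with liver/kidney minus testis at -0.32 ± 0.09 (SE, adjusted p = 0.00696). Because each tissue has its own pool, a difference in the animals and one in the pools cannot be told apart.

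For spretus 0, 4 and 5 members differed between tissues in that order of pairs, against 1.9%, 2.96% and 5.98% of all probes. Beside Rps21 they included Rps26, with brain minus testis at -0.58 ± 0.13 (SE, adjusted p = 0.00248), and Rpl22l1, at 0.51 ± 0.11 (SE, adjusted p = 0.00267). Rpl34 gave 0.39 ± 0.10 (SE, adjusted p = 0.0135) as liver/kidney minus testis. Rps14, with its discordant spots, gave -1.14 ± 0.25 (SE, adjusted p = 0.0024) as brain minus testis and also passed between liver/kidney and testis (adjusted p = 0.00689). Rps20 and Rps7 gave -0.71 ± 0.18 (SE, adjusted p = 0.0102) and 0.78 ± 0.25 (SE, adjusted p = 0.049), with -1.05 and 1.82 on the wide liver/kidney array of spretus 02. Without that array, a check added after seeing the data, they were -0.39 (adjusted p = 0.257) and 0.22 (adjusted p = 0.726), and 6, 7 and 5 members were called in the 3 pairs. Without the testis array of spretus 03, Rps14 was -0.54 (adjusted p = 0.197) as brain minus testis and -0.40 (adjusted p = 0.333) as liver/kidney minus testis. Rps21 kept both calls without either array. Mus against dom differed between tissues for 0 members in each pair, against 0.0389%, 0% and 0.17% of all probes. For cas the counts were 1, 0 and 0, against 1.97%, 0.0437% and 0.398%, and the 1 member was Rpl6, at -0.84 ± 0.21 (SE, adjusted p = 0.0268). Ssp had 0 members in each pair, against 0.0146%, 0% and 0.0194%.

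The stalk proteins differed in their calls. Rplp2 was above the pool in brain (0.18 ± 0.05, SE), liver/kidney (0.30 ± 0.09) and testis (0.40 ± 0.06), with adjusted p-values of 0.0158, 0.00993 and 8.11e-05. Its partner Rplp1 gave 0.04 ± 0.07, 0.15 ± 0.11 and 0.25 ± 0.04 and passed in testis only (adjusted p = 0.000644). The base of the stalk, Rplp0, had 2 probes, and neither passed in any tissue, with estimates between -0.04 and 0.06. In spretus none of these 4 probes passed, and on the wide liver/kidney array of spretus 02 Rplp1 was at 2.43, Rplp2 at 1.74 and the Rplp0 probes at 0.10 and 0.43.

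Paralogs, the second genes for some ribosomal proteins, were measured for Rpl3l, Rpl7l1, Rpl22l1, Rpl36al, Rpl39l and Rps27l. Rpl36al, the autosomal counterpart of the X-linked Rpl36a, was above the pool at 0.17 ± 0.05 (SE, adjusted p = 0.0472) in brain, 0.22 ± 0.06 (SE, adjusted p = 0.00605) in liver/kidney and 0.16 ± 0.03 (SE, adjusted p = 0.00239) in testis. In brain 14 of the 21 runs without 1 array ended that call. Rpl36a was above the pool in brain and liver/kidney at 0.14 ± 0.04 (SE, adjusted p = 0.023) and 0.09 ± 0.04 (SE, adjusted p = 0.0445) and gave -0.05 ± 0.05 (SE) in testis. Rpl7l1 passed in testis at 0.10 ± 0.03 (SE, adjusted p = 0.024) and Rps27l in liver/kidney at 0.11 ± 0.03 (SE, adjusted p = 0.014), and both lost the call without cas 03, at 0.08 (adjusted p = 0.117) and 0.10 (adjusted p = 0.0537). Of the 2 names that do not encode a ribosomal protein of their own, Rps23rg1 passed in testis at 0.08 ± 0.03 (SE, adjusted p = 0.038) and Rps19bp1 in no tissue, at -0.10 ± 0.04, -0.01 ± 0.03 and 0.04 ± 0.02 (SE).

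The 4 genes with 2 probes show how far a gene's value depends on the probe. Across the 24 arrays of a tissue the 2 probes of Rpl35a correlated with r of 0.21, -0.03 and -0.14 in brain, liver/kidney and testis. For Rplp0 r was 0.17, 0.12 and -0.15 in the same order, and for Rps18 it was 0.08, -0.31 and 0.04. For Rpsa it was 0.26, -0.53 (23 arrays) and -0.02. These are descriptions with no test, and the points share the arrays. In testis the Rpl35a probe 4502 was called in spretus at 0.34, while the probe 17565 gave -0.12 ± 0.06 (SE). The Rpsa probe 13120 was called there at -0.52, while the probe 8734 gave 0.06 ± 0.10 (SE). A call for these genes is therefore a call for 1 probe.

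Members also varied together between animals of a group. After group means were subtracted, the mean correlation over all pairs of members was 0.089, 0.058 and 0.052 in brain, liver/kidney and testis, against 0.0025, 0.0023 and 0.0034 over all pairs of probes. The 3 closest pairs in brain were Rpl7a with Rps14 (r = 0.85), Rps19 with Rps6 (0.83) and Rps6 with Rps7 (0.81). In testis they were Rpl26 with Rpl38 (0.82), Rps19 with Rps6 (0.79) and Rpl12 with Rpl35 (0.78). In liver/kidney they were Rpl38 with Rplp2 (0.97), Rpl26 with Rps12 (0.96) and Rplp2 with Rps6 (0.95), and without the wide array of spretus 02 these were 0.91, 0.80 and 0.88. Member pairs above 0.5 made up 7.25% in brain, 13.6% in liver/kidney (7.91% without spretus 02) and 6.42% in testis, against 3.22%, 3.00% (2.60%) and 5.52% of all probe pairs. Member pairs below -0.5 made up 1.28%, 5.22% (1.33%) and 2.26% in the same order, against 2.85%, 2.60% (2.25%) and 4.22% of all probe pairs. The points are 24 arrays a tissue and share library and array quality, so these values are descriptions.

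The 8 genes that recur among such pairs or on the wide array were averaged as a group, a choice made after their values were seen. They were Rpl26, Rpl38, Rplp2, Rps6, Rps7, Rps12, Rps19 and Rps29. In brain their mean over the pool ran from 0.12 to 0.68 in dom (median 0.22), from -0.26 to 0.32 in mus (median 0.16) and from 0.24 to 0.85 in ssp (median 0.48). The spretus brain arrays were at 0.41, 0.89 and 0.72 and the cas arrays at 0.19, -0.09 and 0.09. In testis dom ran from 0.01 to 0.60 (median 0.26), mus from 0.03 to 0.36 (median 0.16) and ssp from 0.13 to 0.96 (median 0.67), with cas at 0.76, 0.64 and 0.75. Dom 01 was the highest dom animal in all 3 tissues, at 0.68 (brain), 0.86 (liver/kidney) and 0.60 (testis). The median of the other members on these 3 arrays was 0.12, 0.13 and -0.02. Mus 08 was the lowest mus array in brain, at -0.26, and in testis, at 0.03, but stood at 0.37 in liver/kidney.

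**Figure D5:**
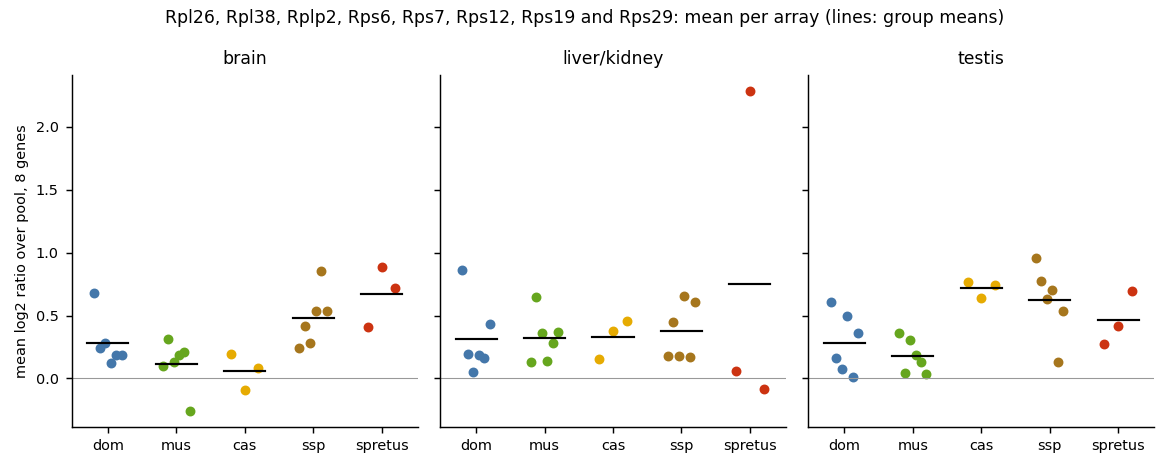
Mean log2 ratio over the pool of 8 ribosomal protein genes on each array, by group and tissue, with lines at group means. In testis the 3 cas arrays lie above every dom and mus array, the spretus 02 liver/kidney array stands at 2.29, and the other spretus liver/kidney arrays stand at 0.06 and -0.08.

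Other genes of the translation machinery were counted against the share of all probes called in either direction, which was 8.95%, 31.4% and 13.1% against the pool in brain, liver/kidney and testis and 3.95%, 7.49% and 9.42% in spretus. Of 20 probes for elongation factors and other genes with terminal oligopyrimidine tracts, 3 were above the pool and 0 below in brain, 8 and 1 in liver/kidney and 3 and 2 in testis, or 15%, 45% and 25%. Tpt1, a growth-related protein of this class, was at 0.59 ± 0.10 (SE, adjusted p = 0.00123) in brain and 0.93 ± 0.17 (adjusted p = 0.00055) in testis. In spretus 1 of these 20 was higher and 0 lower in brain, 2 and 3 in liver/kidney and 2 and 2 in testis. The shares called were 5%, 25% and 20%. The Hnrnpa1 probe 23685 was lower in liver/kidney, at -0.56 ± 0.11 (SE, adjusted p = 0.00267). Fau encodes the small subunit protein Rps30 fused to a ubiquitin-like protein. It was higher, at 0.61 ± 0.14 (SE, adjusted p = 0.00861) in liver/kidney and 0.87 ± 0.16 (adjusted p = 0.00111) in testis. The elongation factor gene Eef1g gave 0.96 ± 0.18 (SE, adjusted p = 0.00113) in testis.

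Among 24 probes for initiation factors and their regulators 2 were above the pool and 0 below in brain, 3 and 1 in liver/kidney and 0 and 3 in testis. The shares called, 8.33%, 16.7% and 12.5%, were each below that of all probes. In spretus 1 was higher and 0 lower in brain, 1 and 2 in liver/kidney and 1 and 2 in testis (4.17%, 12.5% and 12.5%). Eif5a was above the pool in brain and liver/kidney, at 0.19 ± 0.05 (SE, adjusted p = 0.0138) and 0.29 ± 0.04 (adjusted p = 6.05e-06). It was lower in spretus liver/kidney, at -0.37 ± 0.11 (SE, adjusted p = 0.0368). In testis Eif1ax and Eif3b were below the pool, at -0.275 ± 0.05 (SE, adjusted p = 0.000744) and -0.25 ± 0.05 (SE, adjusted p = 0.00277). Ribosome biogenesis genes, which make and assemble the subunits, had 41 probes. Of these 1 was above the pool and 1 below in brain, 4 and 5 in liver/kidney and 2 and 4 in testis, or 4.88%, 22% and 14.6%, with list medians of -0.01, -0.00 and 0.01. Fbl, the methyltransferase fibrillarin, was above the pool in liver/kidney and testis at 0.20 ± 0.04 (SE, adjusted p = 0.00034 and 0.0032). In spretus 1 biogenesis probe was higher and 0 lower in brain, 2 and 0 in liver/kidney and 6 and 2 in testis. The shares called were 2.44%, 4.88% and 19.5%. Polr1b, a subunit of RNA polymerase I, was at 1.48 ± 0.30 (SE, adjusted p = 0.006) in brain. Imp4, a processome component, was at 0.94 ± 0.14 (SE, adjusted p = 0.000229) in liver/kidney. In testis Rrp9 was lower and Utp20 higher, at -0.31 ± 0.06 (SE, adjusted p = 0.00222) and 0.39 ± 0.08 (SE, adjusted p = 0.00347).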

How the data were processed

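The deposited values are 1 log ratio per spot for 46128 spots on each of 72 arrays, read as log2, animal over pool. Neither the base nor the direction is stated. For these deposited log2 ratios, the authors' background correction and normalisation were not given in the sources used here, and the array medians lay between -0.0449 and 0.0553. The spots were matched to symbols through the platform's probe table. Neighbouring spots formed 22320 pairs, all 16326 pairs listed in the table had equal symbols, and the mean of a pair was used. A further 1488 spots without a partner were left out, and 232 repeat pairs of Gapdh were merged, which left 22089 probes, 15801 of them with 1 symbol. Arrays were centred on their median.

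Each tissue was fitted with limma 3.58.1 (R 4.3.3), with a mean per group and at least 2 values in every group, and p-values are two-sided and adjusted by Benjamini-Hochberg over all probes (threshold 0.05). Differences between tissues came from 1 model of 72 arrays that took each animal as a random effect. SE is limma's moderated standard error. No count or depth exists for arrays, so the number of arrays limits the precision. The code was tested on simulated data. Tables were made with pandas 2.3.3, numpy 2.4.6 and scipy 1.17.1 and plots with matplotlib 3.10.9 (Python 3.11.15).

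The members and lists were chosen with earlier results of these data known. Genes to name were, per tissue and contrast, the called members with the 6 smallest p-values (further calls are given in shorter form), or where none passed the 2 with the smallest p-values, together with the stalk proteins, the paralogs and the 2 leading genes of companion lists. Not all of these are printed. Left out are Rpl29 (cas, liver/kidney), Rps23rg1 (ssp, liver/kidney) and Rpl28 (ssp, testis), which did not pass, and several leading companion genes. Features singled out otherwise, such as the 8 averaged genes, were chosen after their values were seen. Alternatives were quantile normalisation, no centring, array weights, stricter filters, removal of discordant spots, fewer groups in the fit, 1 value per gene, a replicate block, arrays left out, and the sets of shared missing spots as a term, as a random block and one at a time. Removal of arrays with low duplicate agreement, the pool comparison within each set, and the removal of single distant arrays from the tissue differences and from Rpl13 were added after seeing the data.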

Additional observations from a re-analysis of the deposited data

Results flagged for a closer look

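In groups of 6 arrays, the highest or lowest array was set against the rest of its group by Dixon's test for the named members. It stood apart in 12 of 135 such groups (8.89%), where chance gives about 1 in 20 if the groups are independent. These groups share arrays, and many of the members were named for small p-values. The share over all probes is not given, so no excess can be read from this count. In brain these were dom 01 for Rps12 (0.57, nearest array 0.17), ssp 03 for Rpl22l1 (0.41, nearest 0.11), ssp 05 for Rps16 (0.64, nearest 0.30) and mus 08 for Rpl38 (-0.75, nearest 0.11). Mus 08 in brain is the array whose title and channel label disagree. In liver/kidney they were ssp 04 for Rpl14 (-0.027, nearest 0.13), ssp 01 for Rpl34 (0.34, nearest 0.04), dom 05 for Rps16 (0.59, nearest 0.36), dom 01 for Rplp2 (0.96, nearest 0.44), mus 03 for Rpl36al (0.63, nearest 0.25) and dom 03 for Rps27l (0.23, nearest 0.09). In testis they were dom 13 for Rpl3l (-0.11, nearest -0.00) and ssp 02 for Rpl36al (-0.10, nearest 0.23). Groups of 3, spretus among them, were too small for this test.

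Among members named with a call in the same contrast, 15 differences between tissues passed the limma test over all 72 arrays. Further differences that passed, for other members or contrasts, are given above. For spretus against the musculus groups, brain minus testis was -0.87 for Rps21 (adjusted p = 2.29e-06), -0.58 for Rps26 (adjusted p = 0.00248) and 0.51 for Rpl22l1 (adjusted p = 0.00267). Liver/kidney minus testis was -0.86 for Rps21 (adjusted p = 2.17e-06) and 0.39 for Rpl34 (adjusted p = 0.0135). For the musculus groups against the pool, brain minus liver/kidney was -0.39 for Rps16 (adjusted p = 0.000785), -0.30 for Rpl15 (adjusted p = 0.000653) and -0.27 for Rps24 (adjusted p = 0.0324). Brain minus testis was 0.28 for Rpl21 (adjusted p = 0.00211). Liver/kidney minus testis was 0.41 for Rps16 (adjusted p = 0.000198), 0.31 for Rpl15 (adjusted p = 0.000154), 0.30 for Rps24 (adjusted p = 0.00632), 0.18 for Rpl21 (adjusted p = 0.0349), 0.15 for Rpl5 (adjusted p = 0.0311) and -0.32 for Rps7 (adjusted p = 0.00696).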

How the results depend on the processing

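Of the values of named members under the alternatives 3411 kept direction and side of the threshold, 152 lost the threshold, 50 passed it newly and 0 reversed. The tally includes the runs without 1 array and members called in neither fit. Calls alone were kept less often. Of the 8, 5 and 11 spretus calls in brain, liver/kidney and testis, 0, 1 and 4 were kept without spretus 02. With quantile normalisation 6, 2 and 3 were kept. Counts of called ribosomal protein probes are given here where they moved by over 1.5 times. For mus against dom in brain, where 0 were called, quantile normalisation gave 3, array weights 3, the arrays of the 2 groups alone 1, the missing-spot set as a term 1, removal of arrays with low duplicate agreement 1 and set 1 alone 2, and in liver/kidney the first 3 of these gave 2, 2 and 2 and set 1 alone 1. For cas, from 0, array weights gave 1 in liver/kidney and 3 in testis, the arrays of the contrast alone 2 in liver/kidney, and the set as a term 1 in testis. For ssp, from 0, removal of discordant spots gave 1 in brain, removal of arrays with low duplicate agreement 1 in brain, and set 1 alone 1 in liver/kidney. For spretus array weights gave 28 in brain (from 8) and 3 in liver/kidney (from 5), quantile normalisation 2 in liver/kidney and 3 in testis (from 11), the set as a term 7 in testis, the set as a random block 0 in liver/kidney, and set 2 alone 1, 0 and 2 in brain, liver/kidney and testis. Against the pool in brain (from 16) array weights gave 9, removal of arrays with low duplicate agreement 9, set 1 alone 10 and set 2 alone 2, and set 2 alone gave 0 in liver/kidney (from 31) and 4 in testis (from 28). The cause of these shifts was not tested, except that fits within a set use fewer arrays and, for several contrasts, fewer groups. Shares of all probes are not given for these alternatives or for the runs without 1 array. Shifts in the counts therefore cannot be read as particular to the ribosomal protein probes. In the spretus differences between tissues, 0, 4 and 5 calls (brain minus liver/kidney, brain minus testis, liver/kidney minus testis) became 6, 7 and 5 without the liver/kidney array of spretus 02 and 0, 5 and 5 without the testis array of spretus 03.

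Without 1 array the counts in brain, liver/kidney and testis ran from 0 to 12, 3 to 14 and 4 to 14 for spretus, 11 to 18, 21 to 31 and 19 to 31 against the pool, 0 to 1 in each tissue for cas, 0 to 1, 0 to 0 and 0 to 0 for mus against dom, and 0 to 3, 0 to 0 and 0 to 0 for ssp. The spretus counts without spretus 01, 02 and 03 were 5, 0 and 5 in brain, 9, 3 and 14 in liver/kidney and 11, 4 and 9 in testis. Counts above 0 appeared for mus against dom in brain without mus 05 (1), for cas without cas 02 in brain (1), cas 01 or dom 03 in liver/kidney (1 each) and dom 01 in testis (1), and for ssp in brain without cas 02 (3), ssp 01 (2), ssp 03 (1) or dom 01 (1). The fit with a replicate block, the animal number of the titles, gave 3, 1 and 6 spretus calls in brain, liver/kidney and testis and 0 in the contrasts among sub-species. Same-numbered arrays of different groups deviated together with a median r of -0.01, 0.00 and -0.03 over 27 pairs a tissue, so the numbers did not pair the samples. The missing-spot set could not be fitted as a term in liver/kidney. Signal over background is not used here, since these files hold ratios.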
